A study of Mus musculus with 18 samples.

Results

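The glycolysis and hypoxia genes are 32 protein-coding genes of mouse. They encode the carriers and enzymes that take glucose to lactate, and a set of genes known as targets or parts of the oxygen-sensing pathway. They were picked by gene symbol through the Ensembl identifier of each row, among 55487 genes in the count table. All 32 passed the filter on low counts. The symbols match 33 rows, because Aldoa has a second identifier that held 0 counts and was left out.

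The 18 libraries come from T cells of mouse spleen, stained and sorted by flow cytometry. The cells were then cultured for 72 h on plates coated with anti-CD3 (2 µg/ml), with IL-2 at 10 ng/ml and anti-CD28 at 2 µg/ml as well. These agents imitate antigen, costimulation and growth factor, and all groups received them. All mice carried Foxp3 YFP/cre, a reporter and recombinase placed in the Foxp3 gene, whose product is the master regulator of regulatory T cells (Treg). The mice labelled Foxp3 YFP/cre are called WT here, and those labelled Foxp3 YFP/cre Ebi3 -/- are called KO. Ebi3 codes for a chain that IL-27 and IL-35, both dimeric cytokines, have in common. Each genotype has 3 libraries of CD8 cells, 3 of CD4 cells and 3 labelled Treg. The labels give no age, and do not state that replicates were separate animals, so the p-values speak of the spread between libraries, which may be technical. Counts were made from 3' tags, which read the end of polyadenylated RNA, and cover 841892 to 2255950 molecules per library. The 32 genes took 0.284 to 0.656% of them.

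Resting T cells draw energy mainly from mitochondria. Activation through the T cell receptor and CD28 switches them to rapid glycolysis with lactate release, even with oxygen present. This switch is driven by the kinase mTOR and the transcription factors MYC and HIF-1. The subunit HIF-1 alpha, encoded by Hif1a, is marked for destruction by the prolyl hydroxylases Egln1 and Egln3 when oxygen is plentiful. When stable, it binds DNA at the core letters ACGTG or GCGTG and switches on glucose carriers, glycolytic enzymes, lactate export and Egln3 itself.

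Promoters of 4 genes that were lower together in the libraries labelled Treg are shown first, to set the core letters beside the values. They are RefSeq promoters of GRCm38.p6, 300 bases each with the last 50 after the start site, written 5′ to 3′ along the gene's strand. Capitals mark ACGTG and GCGTG on either strand, so that CACGT and CACGC are marked as well. CACGTG reads ACGTG on both strands and counts as 2 matches.
Egln3, chr12:54203825-54204124, minus strand: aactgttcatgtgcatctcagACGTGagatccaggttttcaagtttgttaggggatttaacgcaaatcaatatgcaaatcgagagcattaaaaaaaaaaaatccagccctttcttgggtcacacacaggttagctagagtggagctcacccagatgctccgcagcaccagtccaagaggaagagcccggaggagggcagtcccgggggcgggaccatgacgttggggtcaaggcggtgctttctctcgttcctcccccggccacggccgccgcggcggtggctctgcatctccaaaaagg
Slc16a3, chr11:120948817-120949116, plus strand: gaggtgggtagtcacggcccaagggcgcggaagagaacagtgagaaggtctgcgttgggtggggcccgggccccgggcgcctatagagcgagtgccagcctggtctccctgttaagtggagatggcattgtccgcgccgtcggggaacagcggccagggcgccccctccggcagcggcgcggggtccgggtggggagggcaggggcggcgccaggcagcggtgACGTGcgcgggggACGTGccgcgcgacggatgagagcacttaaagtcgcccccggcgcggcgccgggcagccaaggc
Slc16a1, chr3:104638414-104638713, plus strand: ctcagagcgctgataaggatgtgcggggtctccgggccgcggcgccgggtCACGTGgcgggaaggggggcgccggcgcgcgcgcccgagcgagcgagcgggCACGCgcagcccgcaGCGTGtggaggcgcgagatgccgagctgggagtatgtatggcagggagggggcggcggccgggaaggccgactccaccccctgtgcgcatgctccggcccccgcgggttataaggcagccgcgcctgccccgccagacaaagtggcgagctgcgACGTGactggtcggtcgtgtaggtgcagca
Hif1a, chr12:73907617-73907916, plus strand: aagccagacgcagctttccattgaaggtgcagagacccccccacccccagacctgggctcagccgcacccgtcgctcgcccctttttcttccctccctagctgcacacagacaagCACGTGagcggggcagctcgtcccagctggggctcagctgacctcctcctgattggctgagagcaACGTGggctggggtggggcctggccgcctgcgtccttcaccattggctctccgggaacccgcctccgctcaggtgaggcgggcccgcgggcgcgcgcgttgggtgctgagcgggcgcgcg
The Egln3 promoter held 1 match, Slc16a3 held 2, Hif1a held 3 and Slc16a1 held 5. In the table of promoters 30 of the 32 genes have an entry, with 43 promoters in all, and 36 of these (83.7%) held either core. The same letters stood in 62.1% of promoters of the genes tested and in 43.8% of all 32851 promoters. ACGTG alone stood in 58.1% of the promoters of the 30 genes, against 25.5% of those of genes tested. GCGTG stood in 58.1% against 50.7%, and CACGTG, which holds ACGTG, in 14.0% against 9.95%. The promoters of the 30 genes had a median of 63.3% G and C, against 60.7% for genes tested, which moves with the presence of such letters. Some promoters of the same gene overlap, as for Aldoa, Eno1 and Pfkm, so some letters are counted more than once. The 32 genes were also chosen in part as known targets of the oxygen-sensing pathway. The match is a description of the letters and no measurement of binding.

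The targeted gene Ebi3 was counted in every library. Its level in CPM, the count relative to the scaled size of its library, was 38.7 to 60.5 in CD4 WT and 20.6 to 26.1 in CD4 KO. It was 28.0 to 29.7 in CD8 WT and 24.2 to 34.0 in CD8 KO, and 25.8 to 40.1 and 24.6 to 34.5 in the WT and KO libraries labelled Treg. The place of the deletion is not given in the sources used here, and a 3' tag outside it checks nothing. Ebi3 thus did not separate the CD8 libraries or those labelled Treg, and WT and KO mean the labels throughout. No library, those labelled Treg included, had more than 1 count of Foxp3. The libraries labelled Treg held both Cd4 (34.4 to 68.0 CPM) and Cd8a (24.9 to 46.7 CPM), while Cd8a was at 1.69 CPM or less in CD4 libraries and Cd4 at 0.509 or less in CD8 libraries. Il2ra, a gene that activated and regulatory T cells both express, stood at 85.1 to 189 CPM under the Treg label and at 361 to 931 CPM elsewhere. The markers therefore go against this label, and Treg is used below only as the name on 6 libraries. They also had more genes with a count, 20034 to 20596 against 16193 to 17338. The counts of Treg WT replicates 1 and 2 agreed within sampling noise, as did those of Treg KO replicates 1 and 3. Each such pair is counted as 1 sample in means (n = 2), while the tests use the 6 libraries. The tests thus take the libraries of a pair as separate, and a fit with each pair summed is given among the alternatives.

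**Figure D1:**
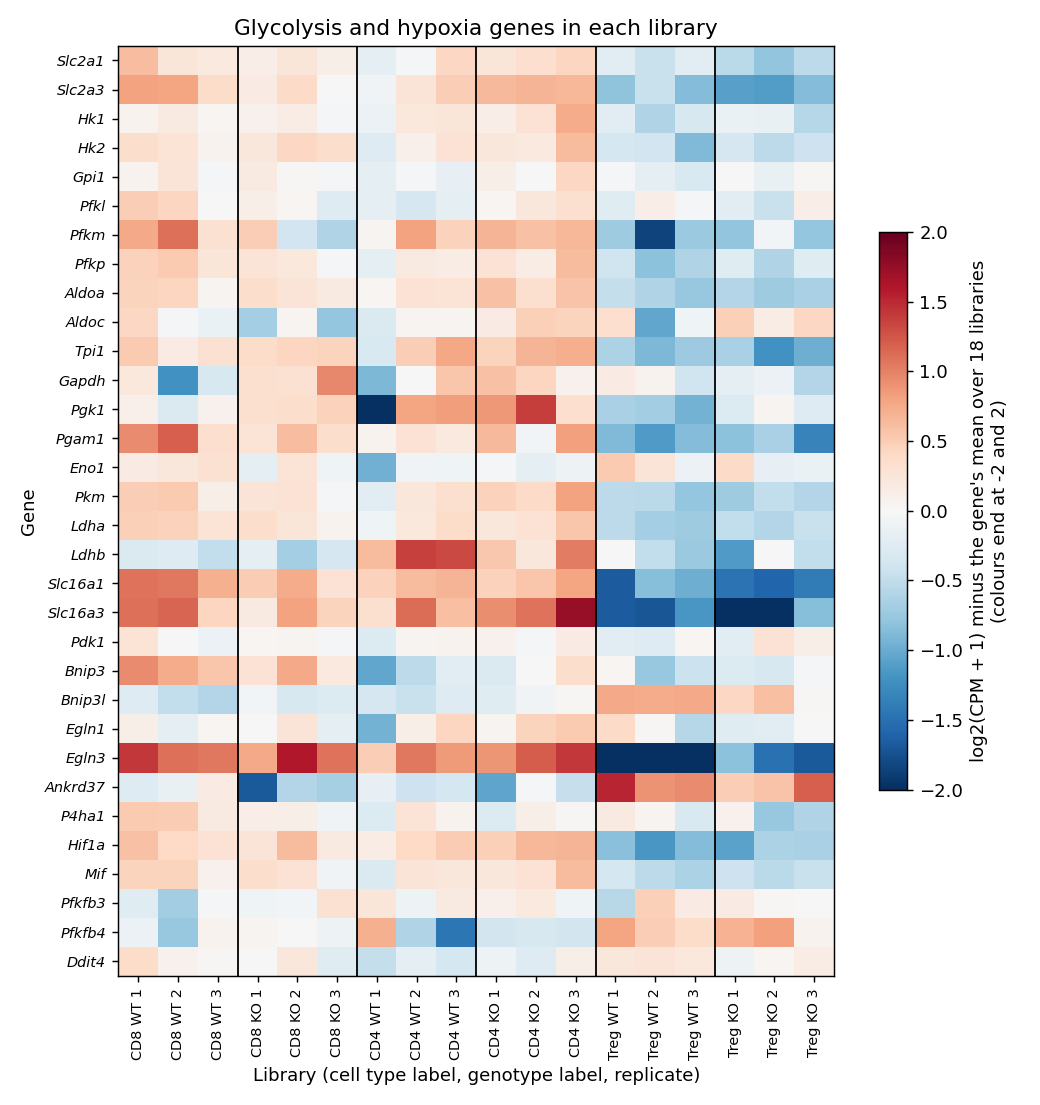
Level of each of the 32 genes (rows) in each of the 18 libraries (columns), as log2(CPM + 1) minus the gene's mean over the libraries, with the colours ending at -2 and 2. Most rows are blue in the 6 libraries labelled Treg, while Bnip3l and Ankrd37 are red there.

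The widest differences lay between the libraries labelled Treg and the CD4 and CD8 libraries. Against CD4 in WT, 16 of the 32 genes were lower and 4 higher, or 62.5%, while 43.0% of all genes tested passed (quasi-likelihood test of edgeR at an adjusted p under 0.05, by Benjamini-Hochberg). By direction, 18.2% of all genes were lower and 24.8% higher. The median log2 fold change of the 32 genes was -0.54 and that of all genes 0.05. Against CD8 in WT, 18 were lower and 2 higher (50.3% of all genes passed, 21.4% lower and 28.8% higher), with a median of -0.72. In KO, 17 were lower and 3 higher against CD4 (48.0% of all genes, 20.3% lower and 27.8% higher), with a median of -0.76. Against CD8 in KO, 15 were lower and 3 higher (44.2% of all genes, 19.0% lower and 25.1% higher), with a median of -0.56. The 4 comparisons share libraries, so they are no independent repeats. Scaling to total counts moved the median of all genes by -0.115 against CD4 and CD8 in WT. By DESeq2 that median stood 0.13 to 0.167 higher over the 4 comparisons. It then covered every gene with a count, a wider set than in the edgeR fit, so it does not measure scaling alone. The median of the 32 genes by DESeq2 was -0.57 against CD4 and -0.762 against CD8 in WT, and -0.806 and -0.574 in KO. None of the 32 genes called in them changed direction under the scalings tried.

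In all 4 comparisons 13 of the 32 genes were lower, with log2 fold changes from -4.42 to -0.51, and 2 were higher. Of the 12693 genes tested, 11.8% were lower and 2287 were higher in all 4. In the order of the pathway, the 13 begin with Slc2a3, a high-affinity glucose carrier, and Hk2, the inducible hexokinase that traps glucose in the cell. They go on with Pfkp, a phosphofructokinase, then Aldoa, Tpi1, Pgam1 and Pkm, the aldolase, isomerase, mutase and pyruvate kinase steps. Ldha, which makes lactate, and its exporters Slc16a1 and Slc16a3 follow. Hif1a, Egln3 and Mif, a cytokine gene induced by HIF-1, complete the list. Over the 4 comparisons the log2 fold change ran from -1.75 to -0.99 for Slc2a3, from -0.79 to -0.61 for Hk2 and from -1.01 to -0.51 for Pfkp. It ran from -1.15 to -0.82 for Aldoa, from -1.57 to -1.09 for Tpi1 and from -1.16 to -0.75 for Pkm, and from -0.86 to -0.59 for Mif. A further 6 were lower in some of the 4 comparisons, among them the glucose carrier Slc2a1 and the hexokinase Hk1. Aldoc, Eno1, Pfkfb4 and Ddit4 were higher in some. The remaining 7, Pfkl, Gapdh, Pgk1, Pdk1, Egln1, P4ha1 and Pfkfb3, passed in none. The levels of Mif, Eno1 and Gapdh are uncertain, because most letters at the ends of their transcripts also occur in other genes, as given below.

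Egln3 (ENSMUSG00000035105, chromosome 12, 54178981 to 54203860 in GRCm38, minus strand) encodes a prolyl hydroxylase that HIF-1 induces and that in turn marks HIF-1 alpha. It stood at 2.59, 0 and 2.87 CPM in the Treg WT libraries and at 9.73, 5.74 and 4.91 CPM in Treg KO. CD4 WT had 25.5, 38.2 and 33.2 CPM and CD4 KO 33.7, 42.9 and 49.1. CD8 WT had 49.2, 39.7 and 38.1 CPM and CD8 KO 30.9, 56.1 and 39.3. Every library labelled Treg lay below every CD4 and CD8 library. In the library at 0 a count of 0 allows up to 3 counts, or 3.40 CPM of its total count before scaling. The WT counts were few, 5 under the Treg label against 173 in CD4, which gives a level 17.4-fold lower with an exact 95% interval of 7.33 to 54.4 for counting error alone. In KO, 18 counts against 264 give a level 6.21-fold lower (3.85 to 10.6). The log2 fold change against CD4 was -4.06 (SE 0.47, adjusted p = 5.56e-08 by edgeR) in WT and -2.62 (SE 0.34, adjusted p = 1.86e-07 by edgeR) in KO.

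Both lactate carriers were lower under the Treg label. Slc16a3 (ENSMUSG00000025161, chromosome 11, 120948480 to 120960868, plus strand) encodes MCT4, the carrier for lactate export in glycolytic cells. It stood at 5.18, 4.92 and 7.65 CPM in Treg WT and 2.43, 3.83 and 9.82 in Treg KO, and no CD4 or CD8 library was below 21.1 CPM. Its log2 fold change against CD4 was -2.37 (SE 0.43, adjusted p = 7.68e-05 by edgeR) in WT and -3.15 (SE 0.41, adjusted p = 8.91e-07 by edgeR) in KO. Slc16a1 (ENSMUSG00000032902, chromosome 3, 104638668 to 104658462, plus strand) encodes MCT1, which carries lactate and pyruvate in both directions. It stood at 23.3, 41.8 and 38.2 CPM in Treg WT and 26.7, 24.9 and 28.2 in Treg KO. The CD4 and CD8 libraries all lay above these, from 93.4 to 164 CPM. The log2 fold change against CD4 was -1.74 (SE 0.18, adjusted p = 4.37e-09 by edgeR) in WT and -2.14 (SE 0.19, adjusted p = 1.12e-10 by edgeR) in KO. Gm43581, with 928 counts over all libraries, overlaps Slc16a1 on the same strand, and how shared reads were counted is not given in the sources used here.

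Hif1a (ENSMUSG00000021109, chromosome 12, 73901375 to 73947530, plus strand) stood at 121, 95.9 and 118 CPM in Treg WT and 102, 139 and 137 in Treg KO. CD4 WT had 238, 286 and 306 CPM and CD4 KO 299, 341 and 346, while CD8 WT had 326, 285 and 264 and CD8 KO 257, 335 and 245. The groups labelled Treg lay wholly below the others. The mean was 113 ± 6.62 CPM (SD, n = 2) in Treg WT and 277 ± 34.8 CPM (SD, n = 3) in CD4 WT, which is 2.49-fold lower in the fit (log2 fold change -1.31, SE 0.14, adjusted p = 1.44e-08 by edgeR). In KO the log2 fold change was -1.37 (SE 0.14, adjusted p = 2.64e-09 by edgeR). The level of HIF-1 alpha protein, which is set mostly by its breakdown, was not measured.

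Pgam1 (ENSMUSG00000011752, chromosome 19, 41911923 to 41918660, plus strand), the phosphoglycerate mutase, stood at 10.4, 8.60 and 10.5 CPM in Treg WT and 10.9, 12.4 and 7.37 in Treg KO. CD4 WT had 21.1, 24.6 and 23.1 CPM and CD4 KO 31.9, 19.3 and 36.0. All libraries labelled Treg were lower than all others, with a log2 fold change against CD4 of -1.22 (SE 0.33, adjusted p = 0.00287 by edgeR) in WT. Ldha (ENSMUSG00000063229, chromosome 7, 46841475 to 46855627, plus strand), the dehydrogenase form that favours lactate, stood at 556, 503 and 490 CPM in Treg WT and 571, 535 and 592 in Treg KO. CD4 WT had 759, 928 and 1034 CPM and CD4 KO 938, 977 and 1175, while CD8 WT had 1118, 1111 and 969 and CD8 KO 1030, 952 and 841. The ranges were again apart. The means were 510 ± 27.6 (SD, n = 2) and 907 ± 138 CPM (SD, n = 3) in Treg and CD4 WT, and the log2 fold change was -0.82 (SE 0.11, adjusted p = 2.91e-07 by edgeR).

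Slc2a1 (ENSMUSG00000028645, chromosome 4, 119108711 to 119137983, plus strand) encodes GLUT1, the main glucose carrier of activated T cells. It stood at 47.9, 40.6 and 47.8 CPM in Treg WT and at 48.1, 54.1 and 74.2 in CD4 WT. The groups nearly touched, and the log2 fold change of -0.38 (SE 0.18) missed the threshold (adjusted p = 0.0845 by edgeR). In KO the values were 37.7, 31.6 and 38.1 CPM under the Treg label and 66.0, 70.0 and 74.9 in CD4, and the log2 fold change was -0.98 (SE 0.18, adjusted p = 3e-05 by edgeR). The CD8 libraries ran from 59.9 to 85.8 CPM. Against CD8, Slc2a1 was lower in both genotypes, by 0.65 in WT and by 0.80 in KO on the log2 scale.

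Bnip3l (ENSMUSG00000022051, chromosome 14, 66985239 to 67008877, minus strand) encodes NIX, a receptor that sends mitochondria to autophagy, known also from maturing red cells. It stood at 55.7, 55.3 and 55.4 CPM in Treg WT, while CD4 WT had 25.5, 23.7 and 27.0 and CD8 WT 27.1, 22.9 and 21.3. In KO the values were 43.8, 49.8 and 33.1 CPM under the Treg label, 27.5, 30.8 and 33.2 in CD4 and 31.4, 25.8 and 26.8 in CD8. The WT groups were apart (log2 fold change against CD4 1.13, SE 0.18, adjusted p = 5.71e-06 by edgeR), and in KO Treg KO replicate 3 lay just below the highest CD4 library. In KO the log2 fold change was 0.48 (SE 0.18, adjusted p = 0.0241 by edgeR). That call was lost without CD4 KO replicate 1 (adjusted p = 0.0978 by edgeR), Treg KO replicate 1 (0.072) or Treg KO replicate 2 (0.225). It was also lost by DESeq2 (0.0866), with total-count scaling (0.0668 by edgeR) and with no filter on low counts (0.257 by edgeR). Against CD8 in KO the call was lost without Treg KO replicate 2 (0.0949 by edgeR) and with no filter (0.0951 by edgeR). Neither KO call held where a fold change over 1.5 was required. The erythroid markers summed to 1212 to 1278 CPM under the Treg label and to 637 to 1522 elsewhere, with all 8 detected in every group, and their part in the level of Bnip3l was not tested.

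Ankrd37 (ENSMUSG00000050914, chromosome 8, 45996902 to 46005707, minus strand), an ankyrin repeat gene known as a HIF-1 target, was also higher. It stood at 23.3, 14.7 and 15.3 CPM in Treg WT and 10.9, 11.5 and 18.4 in Treg KO, and no CD4 or CD8 library exceeded 8.41 CPM. The log2 fold change against CD4 was 1.59 (SE 0.35, adjusted p = 0.000379 by edgeR) in WT and 1.40 (SE 0.37, adjusted p = 0.00202 by edgeR) in KO. Ufsp2, with 1581 counts, overlaps Ankrd37 on the opposite strand, and the strand setting of the counting is not given in the sources used here.

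**Figure D2:**
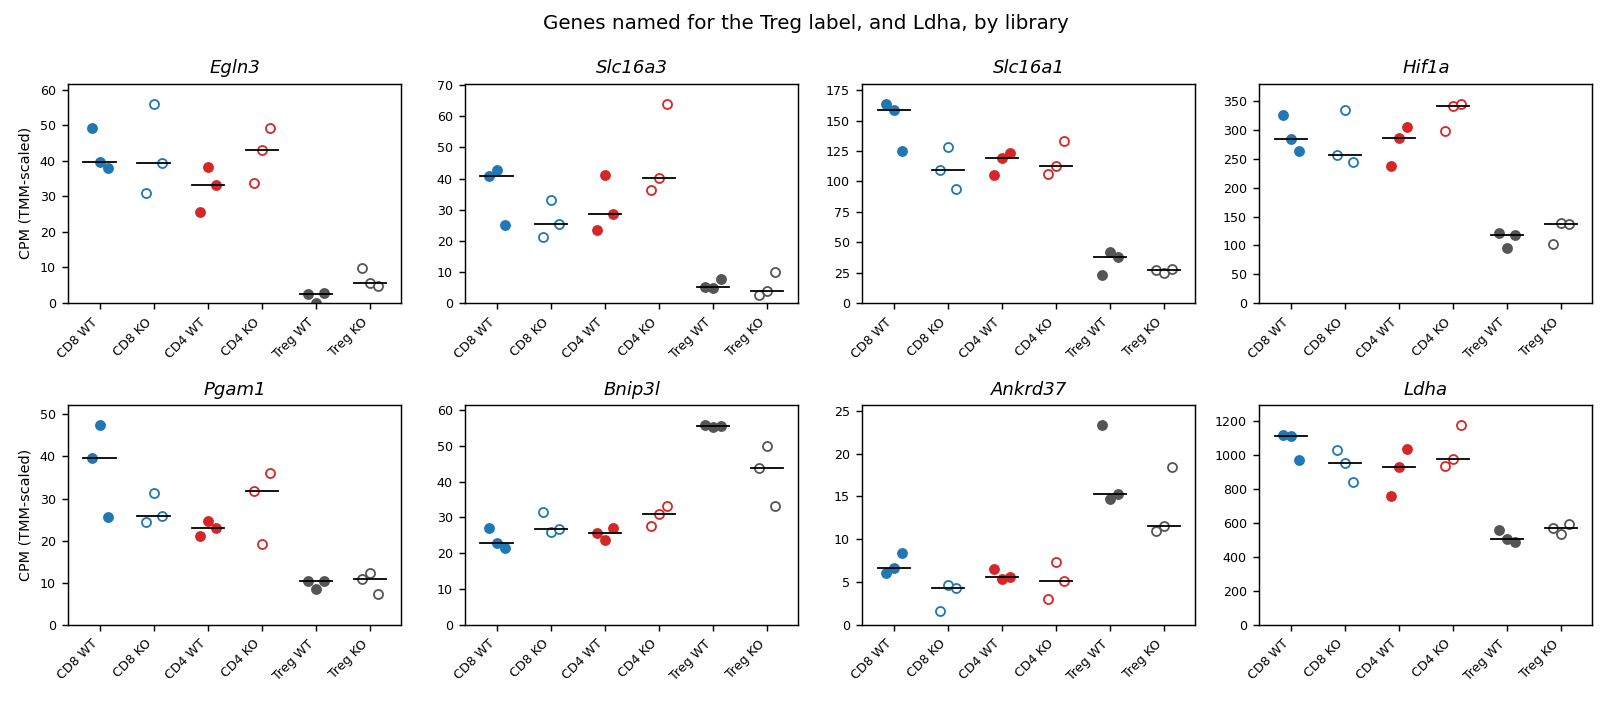
CPM of 8 genes by library, 1 panel per gene, with points for libraries, filled for WT and open for KO, and a line at the group's median; each axis starts at 0. Egln3, Slc16a3, Slc16a1, Hif1a, Pgam1 and Ldha lie lower in all 6 libraries labelled Treg than elsewhere, and Ankrd37 lies higher.

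Summed over the 32 genes, the level was 2957 to 3428 CPM under the Treg label and 3892 to 6473 CPM in the CD4 and CD8 libraries. In whole samples, fewer cells of a type and less RNA per cell cannot be told apart. Transcripts of B cells, summed over 13 markers that were all detected in every group, reached 6446 to 7110 CPM under the Treg label and 3570 to 8770 CPM elsewhere. The 6 T cell receptor and CD3 genes summed to 785 to 1156 CPM under the Treg label and 879 to 1737 elsewhere. Per count of these T cell genes, the 32 genes stood at 2.69 to 3.95 under the Treg label. In the CD4 and CD8 libraries they stood at 3.31 to 5.01, so the ranges over both genotypes overlap. In WT the ranges overlap, at 2.74 to 3.95 under the label, 3.31 to 4.08 in CD8 and 3.82 to 4.43 in CD4. In KO the ranges were apart, with 2.69 to 3.44 under the label against 4.18 to 5.01 in CD8 and 4.02 to 4.36 in CD4. The 5 Treg markers summed to 215 to 389 CPM under that label and to 622 to 1354 elsewhere. Myeloid and dendritic markers, 11 genes, summed to 123 to 161 CPM under the Treg label and to 67.2 to 122 elsewhere, where Adgre1, Flt3, Xcr1 and Cd14 were at 0 in CD8 WT, Cd14 in CD4 WT and Xcr1 in both KO groups. The 4 NK cell genes summed to 24.6 to 38.3 CPM under the label and to 17.3 to 52.7 elsewhere, and the 3 platelet genes to at most 1.91 and to 1.51 to 4.83. The libraries labelled Treg were also shallower, at 841892 to 1089003 counts against 1358671 to 2255950. The part of makeup and depth in the lower glycolytic level was not tested.

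**Figure D3:**
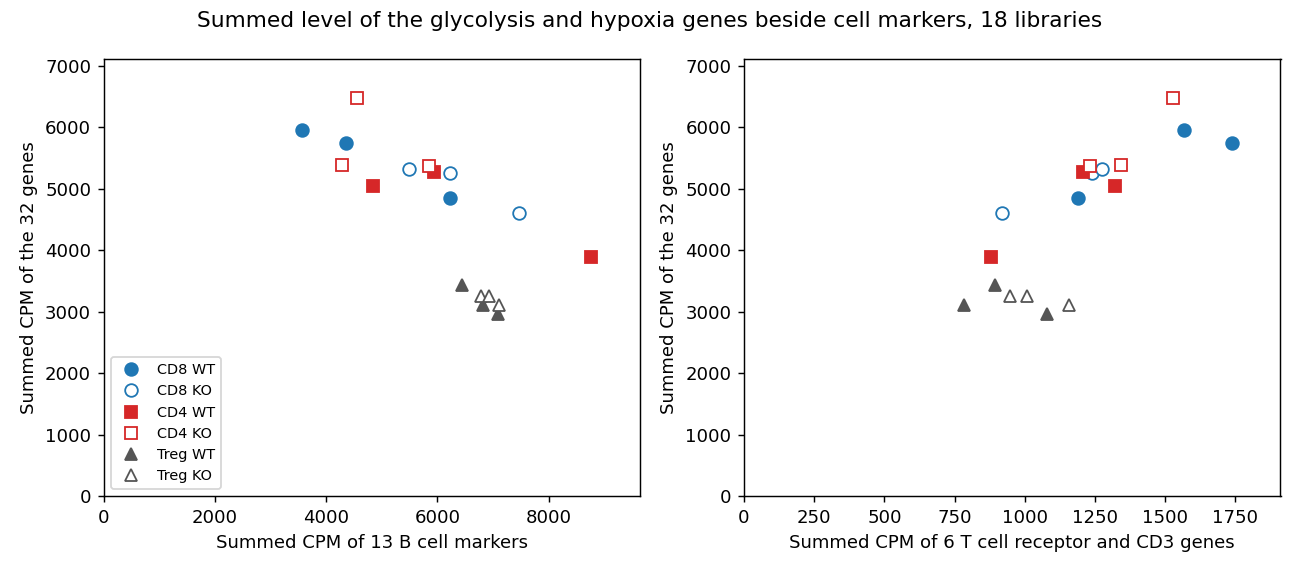
Summed CPM of the 32 genes (vertical) against the summed CPM of 13 B cell markers (left) and of 6 T cell receptor and CD3 genes (right), 1 point per library. The libraries labelled Treg sit at 2957 to 3428, below all others, and CD4 WT replicate 1 has the most B cell transcripts (8770).

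Other genes of the pathway, from lists that hold none of the 32, were counted in the same comparisons. Values here and in the next paragraph are for the Treg label against CD4 in WT unless stated. Among 12 tested glycolytic isoforms and branch enzymes, 5 were lower and 0 higher under the Treg label than in CD4 in WT, with a median log2 fold change of -0.42. Those of largest change were Galm (-1.99), which interconverts the forms of galactose and glucose, Pgm2 (-1.51), a phosphoglucomutase, and the enolase Eno3 (-0.84). Of 10 pentose phosphate genes 4 were lower and 0 higher (median -0.46), led by the phosphoribosyl pyrophosphate synthetase Prps1 (-0.92), then the transketolase Tkt (-0.71) and the dehydrogenase Pgd (-0.50). Genes of pyruvate entry into mitochondria went both ways, 5 lower and 2 higher of 11 (median -0.12). Pdk2 (1.66) and Pdk3 (-0.79), kinases that switch pyruvate dehydrogenase off, moved in opposite directions, and Pdp2 (-0.74), which encodes a phosphatase that switches it on, was lower. Pdk1, the HIF-1 target among these kinases and one of the 32, stood at a log2 fold change of -0.10 (SE 0.15). Against CD8 in WT the pyruvate entry list had 5 lower and 3 higher. In KO it had 5 lower and 0 higher against CD4 (median -0.32), and 5 lower and 2 higher against CD8.

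Among 11 regulators of HIF, 5 were lower and 1 higher (median -0.34). Epas1 (-2.73), which encodes HIF-2 alpha, Cul2 (-1.07), the scaffold of the ligase that tags HIF, and Siah2 (-0.91), a ligase for the prolyl hydroxylases, changed most. Among 26 other hypoxia targets, 7 were lower and 2 higher (median -0.33), so the targets did not move as a block. Stc2 (-2.45), a secreted glycoprotein, and the carbonic anhydrase Car12 (-1.81) were lower, while the collagen-modifying Plod1 (2.02) was higher. Of 11 genes of mTOR and MYC control, 3 were lower and 1 higher (median -0.15). Myc fell by 1.12 on the log2 scale and Mtor by 0.58, and Txnip, which restrains glucose uptake, rose by 0.73. These shares stand beside 18.2% lower and 24.8% higher among all genes tested. The mTOR and MYC list did not keep its direction in the other comparisons of the label. Against CD8 in WT 2 were lower and 2 higher (median -0.07). In KO 1 was lower and 3 higher against CD4 (median 0.17), and 2 were lower and 3 higher against CD8 (median 0.22). Among all genes in KO, 20.3% were lower and 27.8% higher against CD4, and 19.0% and 25.1% against CD8.

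CD8 and CD4 cells in WT differed less. Here 4 of the 32 genes were higher in CD8 and 1 lower, or 15.6%, against 5.37% of all genes tested (3.49% higher, 1.88% lower). The fold change was above 0 for 24 genes and below 0 for 8, with a median of 0.23 on the log2 scale and -0.01 for all genes. The ranges of the groups did not overlap for 9 of the 32, against 18.9% of all genes. The 5 genes below were named after their values were seen, since none passed in both genotypes.

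Bnip3 and Ldhb differed most. Bnip3 (ENSMUSG00000078566, chromosome 7, 138890836 to 138909519, minus strand) encodes a HIF-1-induced relative of NIX that also marks mitochondria for autophagy. It stood at 66.2, 57.5 and 50.4 CPM in CD8 WT and at 16.0, 23.2 and 29.2 CPM in CD4 WT. The lowest CD8 library was above the highest CD4 library, and the log2 fold change was 1.32 (SE 0.20, adjusted p = 4.25e-05 by edgeR). Of the 50-letter words in the last 300 letters of the Bnip3 transcripts, 46.8% also occur in transcripts of 6 other genes. The level of Bnip3 is therefore uncertain. Ldhb (ENSMUSG00000030246, chromosome 6, 142490249 to 142507957, minus strand) encodes the dehydrogenase form that favours pyruvate. It stood at 3.01, 3.06 and 2.47 CPM in CD8 WT and at 6.56, 11.6 and 11.2 in CD4 WT, also apart. On 17 against 53 counts, the level in CD8 was 3.57-fold lower (exact 95% interval 2.04 to 6.58, counting error only), and the log2 fold change was -1.80 (SE 0.36, adjusted p = 0.00174 by edgeR). Both genes passed with any 1 library of these groups left out.

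The other 3 calls lay nearer the threshold, and each was lost when any of several single libraries was left out. Ddit4, an mTOR inhibitor induced by low oxygen, stood at 190, 156 and 149 CPM in CD8 WT and 105, 129 and 115 in CD4 WT (log2 fold change 0.50, SE 0.12, adjusted p = 0.0121 by edgeR). The phosphofructokinase Pfkl stood at 52.2, 49.9 and 37.1 CPM against 32.1, 29.0 and 32.6 (log2 fold change 0.57, SE 0.17, adjusted p = 0.0385 by edgeR). Pgam1 stood at 39.6, 47.4 and 25.7 CPM against 21.1, 24.6 and 23.1 (log2 fold change 0.70, SE 0.21, adjusted p = 0.0488 by edgeR). In all 3 the groups did not overlap. The count of genes called was 2 without CD4 WT replicate 1, without CD4 WT replicate 3 or without CD8 WT replicate 1. It was 3 without CD8 WT replicate 2 and 8 without CD8 WT replicate 3. The share of all genes called in these fits is not given here. CD4 WT replicate 1 had the highest B cell sum (8770 CPM) and the lowest sum of the 32 genes among CD4 and CD8 libraries (3892 CPM). Without it the median fell to 0.09, and 22 genes were higher and 10 lower in CD8.

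In KO most fold changes lay on the other side of 0. The fold change of CD8 against CD4 was below 0 for 25 genes and above 0 for 7, with a median of -0.19, and 0 passed by edgeR, DESeq2 or limma-voom (3.58% of all genes by edgeR). At an unadjusted p under 0.05 there were 9 of the 32, against 15.4% of all genes. The lowest adjusted p values were 0.0587 for Aldoc, 0.0603 for Slc16a3 and 0.0666 for Ldhb. Bnip3 stood at 41.7, 57.7 and 38.8 CPM in CD8 KO and 27.5, 34.0 and 43.5 in CD4 KO, so the groups overlapped (log2 fold change 0.40, SE 0.19, adjusted p = 0.304 by edgeR). Ldhb stood at 3.25, 2.06 and 2.87 CPM in CD8 KO and 6.12, 4.70 and 8.89 in CD4 KO, for a log2 fold change of -1.26 (SE 0.39). Slc16a3 stood at 21.1, 33.0 and 25.4 CPM in CD8 KO and at 36.3, 40.2 and 64.1 in CD4 KO. Here all CD8 libraries lay below all CD4 libraries. Slc16a3 passed without CD4 KO replicate 1 (adjusted p = 0.0308 by edgeR), and Aldoc and Slc16a3 passed without CD8 KO replicate 2, Pfkm without CD8 KO replicate 1, and Ldhb without CD4 KO replicate 2. The share of all genes called in these fits is not given here. The median was -0.07 without CD4 KO replicate 3. Per count of the 6 T cell receptor and CD3 genes, the sum of the 32 genes was 4.18 to 5.01 in CD8 KO and 4.02 to 4.36 in CD4 KO. On this scale the ranges overlap and both ends were higher in CD8.

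**Figure D4:**
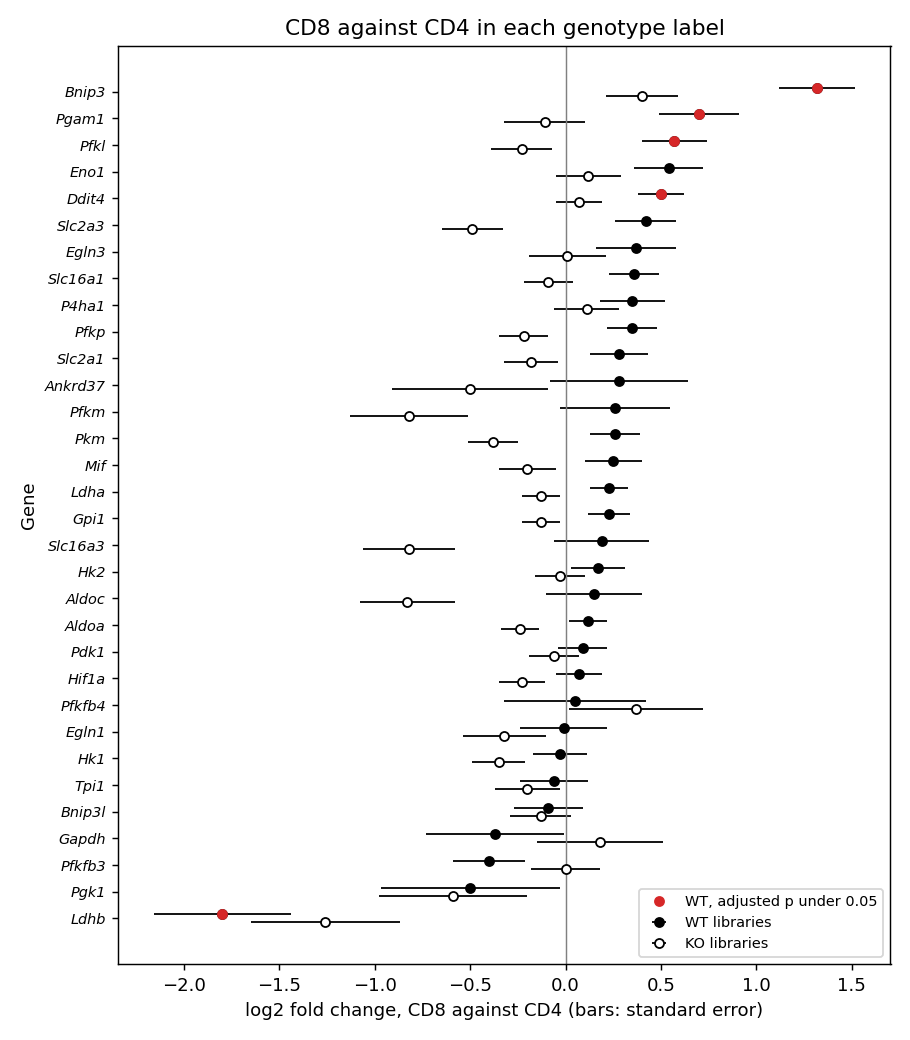
Log2 fold change of CD8 against CD4 (horizontal) for each of the 32 genes, with bars for the standard error, in WT (filled, red where the adjusted p was under 0.05) and in KO (open). In WT 24 genes lie right of 0 and in KO 25 lie left of it, while Ldhb lies left in both.

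**Figure D5:**
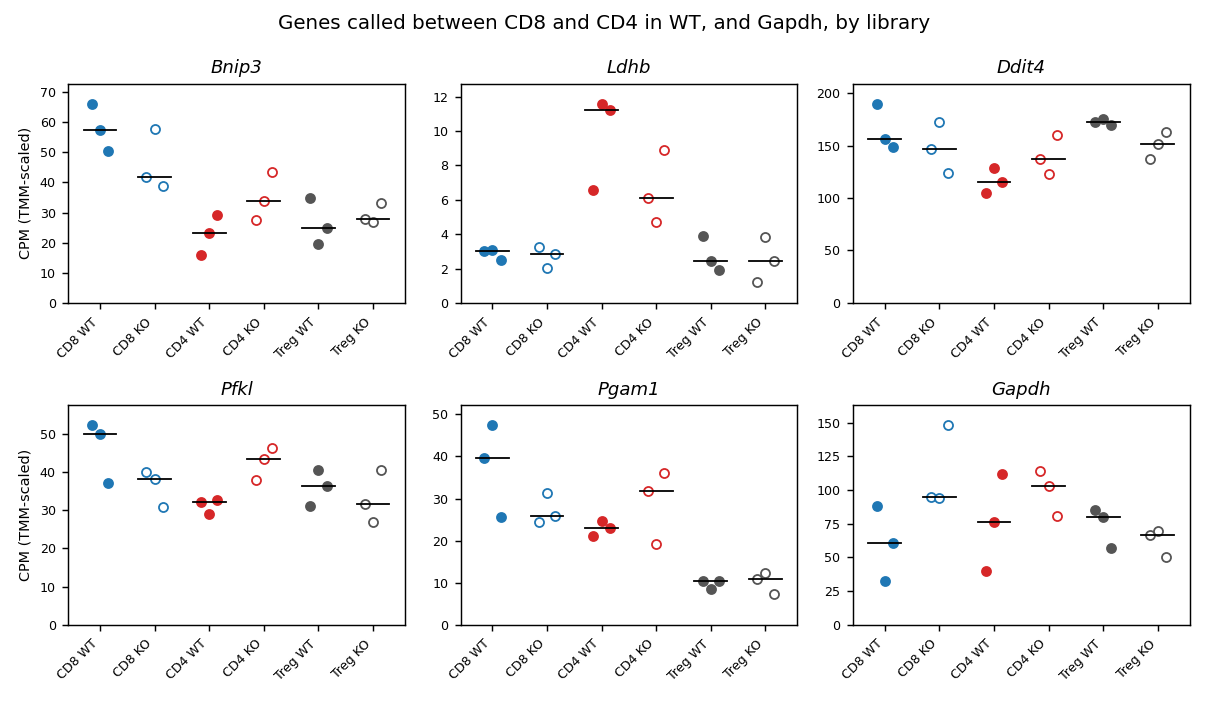
CPM by library of the 5 genes called between CD8 and CD4 in WT and of Gapdh, with points for libraries, filled for WT and open for KO, and a line at the group's median; each axis starts at 0. Bnip3 and Ldhb separate CD8 from CD4 in WT, and Gapdh is scattered within groups.

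The KO and WT labels were then compared within each cell type. In CD8 cells 0 of the 32 genes passed between KO and WT by edgeR, DESeq2 or limma-voom, against 0.165% of all genes by edgeR. At an unadjusted p under 0.05 there were 9 (16.3% of all genes). The fold change was below 0 for 24 and above 0 for 8, with a median of -0.15. The ranges did not overlap for 4 of the 32, 2 higher and 2 lower in KO, against 17.4% of all genes. The 3 genes of lowest p were Slc16a1, Slc2a3 and Pfkm. Slc16a1 stood at 164, 159 and 125 CPM in CD8 WT and 109, 128 and 93.4 in CD8 KO (log2 fold change -0.44, SE 0.13, adjusted p = 0.102 by edgeR). Slc2a3 stood at 57.2, 56.5 and 42.0 CPM against 36.3, 42.2 and 32.1 (-0.49, SE 0.16, adjusted p = 0.125 by edgeR). Both overlapped through CD8 WT replicate 3. The muscle-type phosphofructokinase Pfkm stood at 12.5, 16.3 and 8.90 CPM against 10.3, 5.15 and 4.31 (-0.94, SE 0.31, adjusted p = 0.135 by edgeR). Senp1, with 3693 counts, overlaps Pfkm on the opposite strand.

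CD8 WT replicate 3 stood apart from the other CD8 WT libraries in the same direction as KO. Its sum over the 32 genes was 4850 CPM, against 5956 and 5745 in replicates 1 and 2 and 4602 to 5328 in KO. Its B cell sum was 6219 CPM, against 3570 and 4357 in the other WT libraries and 5492 to 7465 in KO. Without it 4 genes passed as lower in KO, namely Slc2a3 (adjusted p = 0.0248 by edgeR), Pfkm (0.0339), Pgam1 (0.0439) and Slc16a1 (0.016). The share of all genes that passed without it is not given here, so the 4 cannot be set against the 0.165% with all libraries. No other CD8 library gave a call when left out. The median of -0.15 was -0.07 without CD8 WT replicate 1, with 12 genes above 0 and 20 below, and -0.08 without CD8 KO replicate 3, with 11 above and 21 below. Per count of the 6 T cell receptor and CD3 genes, the sum of the 32 genes was higher in KO (4.18 to 5.01) than in WT (3.31 to 4.08), so the direction turned on this scale. The part of the B cell transcripts in the difference was not tested.

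In CD4 cells the fold change of KO against WT was above 0 for 27 genes and below 0 for 5, with a median of 0.29, and 0 passed by edgeR, DESeq2 or limma-voom (0% of all genes by edgeR). At an unadjusted p under 0.05 there were 11 of the 32, against 7.32% of all genes tested. The ranges did not overlap for 7 genes, all higher in KO, against 9.60% of all genes in either direction and 4.89% higher. The 3 of lowest p were Pkm, Aldoa and Gpi1, all with an adjusted p = 0.657 by edgeR. Pkm, the pyruvate kinase, stood at 307, 418 and 448 CPM in CD4 WT and 496, 469 and 627 in CD4 KO (log2 fold change 0.44, SE 0.13). Aldoa, the aldolase, stood at 555, 658 and 652 CPM against 817, 678 and 800 (0.30, SE 0.10). Gpi1, which turns glucose phosphate into fructose phosphate, stood at 198, 219 and 199 CPM against 243, 225 and 297 (0.31, SE 0.11). The sum of the 32 genes was 3892 to 5270 CPM in WT and 5367 to 6473 CPM in KO, apart by the lowest and highest of each. The B cell sums were 4838 to 8770 CPM and 4277 to 5842 CPM. Without CD4 WT replicate 1 the median fell to 0.16, with 25 genes above 0 and 7 below, and without CD4 KO replicate 3 it was 0.18. Per count of the 6 T cell genes the sum was 3.82 to 4.43 in WT and 4.02 to 4.36 in KO, which overlap.

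The difference between the effect of KO in CD4 and in CD8 was above 0 for 28 genes and below 0 for 4, with a median of 0.36 on the log2 scale. It passed for 0 of the 32 by edgeR (0% of all genes) and by limma-voom, and for 2, Pfkp and Pkm, by DESeq2. The share of all genes by DESeq2 is not given here, so that count cannot be set against the 0% by edgeR. At an unadjusted p under 0.05 there were 16, against 17.9% of all genes. All 32 genes come from the same libraries, so these genes are no separate observations. The lowest adjusted p was 0.065, for Slc2a3, with a difference of 0.91 (SE 0.22). Without CD8 WT replicate 3 the difference passed for 8 genes, Slc2a3, Pfkl, Pfkp, Aldoa, Pgam1, Pkm, Slc16a3 and Bnip3. The share of all genes in that fit is not given here, so the 8 cannot be set against the 0% with all libraries. Between 0 and 3 passed without any other single library, 3 of them without CD4 WT replicate 2 (Slc2a3, Pfkp and Slc16a3).

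Between KO and WT, Hif1a had a log2 fold change of -0.06 (SE 0.12) in CD8 and 0.24 (SE 0.12) in CD4, and Slc2a1 of -0.21 (SE 0.14) and 0.25 (SE 0.14). Ldha had -0.18 (SE 0.10) and 0.18 (SE 0.10). None of these 3 passed in either cell type. Gapdh (ENSMUSG00000057666, chromosome 6, 125161715 to 125166467, minus strand), the glyceraldehyde phosphate dehydrogenase often used as a constant reference, was uneven within groups. It stood at 87.8, 32.1 and 60.3 CPM in CD8 WT, 94.8, 94.3 and 148 in CD8 KO, 40.1, 76.4 and 112 in CD4 WT and 114, 103 and 80.5 in CD4 KO. Under the Treg label it stood at 85.5, 79.9 and 57.3 CPM in the WT libraries and 66.9, 69.9 and 50.3 in the KO libraries. In CD8 the KO libraries lay above WT (log2 fold change 0.91, SE 0.35, adjusted p = 0.221 by edgeR). Of the 50-letter words in the last 300 letters of the Gapdh transcripts, 78.3% also occur in transcripts of 175 other annotated genes. The share was 86.9% for Eno1, 72.9% for Mif and 46.8% for Bnip3, 25% or less for 8 more, and 0 for the other 20. How reads with several matches were treated is not given in the sources used here, so the levels of Gapdh, Eno1, Mif and Bnip3 are uncertain.

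Under the Treg label 0 of the 32 genes passed between KO and WT by edgeR, DESeq2 or limma-voom (0% of all genes by edgeR), 16 fold changes were above 0 and 16 below, and the median was 0. At an unadjusted p under 0.05 there were 2, against 2.16% of all genes. Egln3 had 18 counts in KO and 5 in WT, a ratio of 3.53 (exact 95% interval 1.26 to 12.2, counting error only), with an adjusted p = 0.999 by edgeR. Some WT and KO libraries of this label differed by less than sampling noise, in 4 of 9 pairs across genotypes. Among the 81 tested genes of the other pathway lists, 0 passed between KO and WT by edgeR in CD8, CD4 or the Treg label. At an unadjusted p under 0.05 there were 14, 9 and 2 of the 81, against 16.3, 7.32 and 2.16% of all genes. DESeq2 called 2 in CD8 and limma-voom 0, and the share of all genes by DESeq2 is not given here.

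The pathway lists also held genes that differed between CD8 and CD4. In WT, Gpd2, the mitochondrial dehydrogenase of the glycerol phosphate shuttle, was higher in CD8 (log2 fold change 0.57, SE 0.09, adjusted p = 0.000123 by edgeR), 1 of 12 isoforms and branch enzymes. It was higher in KO as well (0.40, SE 0.09, adjusted p = 0.00789 by edgeR). Its level was 238 CPM or more in every CD8 library and 201 CPM or less in every CD4 library. Of 11 HIF regulators 1 was higher in WT, Cul2 (0.56), and in KO 1 was lower, Epas1 (-0.92). Of 26 other hypoxia targets, Ero1l (0.66), an oxidase of protein folding, was higher and Rora (-1.35), a nuclear receptor, lower in WT. In KO 3 were lower, Rora (-1.37), Stc2 (-1.16) and Bhlhe40 (-0.97). Of all genes tested, 3.49% were higher and 1.88% lower in CD8 than in CD4 in WT, and 1.37% higher and 2.21% lower in KO.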

How the data were processed

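RNA of 18 sorted and activated mouse spleen T cell libraries was read from its 3' end with molecular identifiers (UMIs), from 500 ng of total RNA each per the labels' protocols. The authors deposited 1 table of raw counts, with a row for each Ensembl gene. Per the submitters' processing notes STAR 2.5.3a, cutadapt 2.10, FastQC, featureCounts, Subread 2.0.0 and UMI-tools 1.0.0 were among the tools, with GRCm38 and mm10 as builds. How strand and multiple matches were set is not given in the sources used here. All columns of the count table match a library (0 unused).

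Counts were fitted with edgeR 4.0.16 in R 4.3.3 (quasi-likelihood test, robust, filterByExpr with a minimum count of 10, TMM scaling, 6 group means, 12 residual degrees of freedom), leaving 12693 genes. Benjamini-Hochberg adjustment ran over all of these at a threshold of 0.05, and the 32 genes were read out of that fit. DESeq2 1.42.0, limma-voom (limma 3.58.1), other scalings, filters, subsets and each library left out were alternatives. The script was tested on simulated data. Libraries were compared by chi-square over genes with at least 20 summed counts. Exact intervals (95%) and the limit of 3 counts cover counting error only.

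The 32 genes and the marker and pathway lists were chosen with earlier results of these data known. Named by rule were genes called between CD8 and CD4 in both genotypes (none), those called between KO and WT or else the 3 of lowest p in CD8 and in CD4, up to 5 of largest rise and of largest fall among those called in all 4 comparisons of the Treg label, and Hif1a, Slc2a1, Ldha and Gapdh. Of each pathway list up to 3 called genes of largest change were named. Same-numbered libraries did not deviate together (correlations -0.34 to 0.31), so numbers were not used as pairs.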

Additional observations from a re-analysis of the deposited data

How the results depend on the processing

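Of 83 calls of single genes, 50 held under every alternative run, 97 of 1247 alternative values missed the threshold and 0 changed direction. Leaving out each library in turn gave 0 to 4 genes called between KO and WT in CD8, 0 in CD4 and 0 under the Treg label, 2 to 8 for CD8 against CD4 in WT, 0 to 2 in KO and 0 to 8 for the difference of the KO effects. For the Treg label the range was 18 to 22 against CD4 and 18 to 23 against CD8 in WT, and 17 to 21 and 16 to 17 in KO. With no filter on low counts, 1 gene passed between KO and WT in CD8 (Slc16a1, adjusted p = 0.0238 by edgeR) and 1 in CD4 (Pkm, 0.0167), 3 for CD8 against CD4 in KO and 7 for the difference of the KO effects. By DESeq2, 3 passed for CD8 against CD4 in WT and 2 for the difference. With the Treg pairs within sampling noise summed, 81 calls held and 2 were lost. These were Pgam1 for CD8 against CD4 in WT (adjusted p = 0.0702 by edgeR) and Eno1 for the Treg label against CD4 in WT (0.0591). With only the libraries compared, CD8 against CD4 gave 2 in WT and 3 in KO, with only the 12 CD4 and CD8 libraries 2 in WT, and with RLE scaling 1 in KO. A required fold change over 1.5 left 2 for CD8 against CD4 in WT, 12 for the Treg label against CD4 in each genotype and 9 against CD8 in KO. The cause of these changes was not tested.

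With the replicate number as a block, CD8 against CD4 gave 3 calls in WT and 1 in KO (Slc16a3, adjusted p = 0.0452 by edgeR), and the other counts were as without it. The share of all genes in that fit is not given here either. In 1 of 9 pairs of groups every library correlated best with its own number. The libraries labelled Treg, at 841892 to 1089003 counts, limit what can be seen of genes such as Egln3 with few counts.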
